A study of Homo sapiens with 20 samples.

Results

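To examine which exons were skipped after depletion of fibrillarin (FBL), exon skipping was measured in the input RNA of HepG2, an established line of human hepatocellular origin, transfected with an siRNA against FBL (siFBL) or a control siRNA (siCtrl) and harvested after 48 h. Each group had 2 libraries. The series held 20 samples in all, and the input is the RNA of the lysate set aside before immunoprecipitation of the splicing factor FUBP1. The labels number the 2 libraries of a group, the study's methods describe them as biological replicates, and 1 siRNA product is given per target, so no second siRNA checks the first. An event is 1 skipped exon with its 2 neighbouring exons. The events described are those averaging 20 or more junction reads (reads that cross a splice junction of the event) per library. They numbered 3941 of the 7065 events listed for these 4 libraries and of 59847 events listed for the 3 depletions of the series. Values from the other depletions, an antisense oligonucleotide (ASO) that targets the small nucleolar RNA U3 (compared with a GFP ASO, 72 h) and an siRNA against FUBP1 (siFUBP1 against siCtrl2, 48 h), are given beside them, with 3 libraries in each of these groups.

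FBL is the methyltransferase of the box C/D small nucleolar ribonucleoprotein. It places a methyl group on the 2′ oxygen of the ribose at positions that a C/D box small nucleolar RNA selects by base pairing, chiefly in ribosomal RNA. Exons are recognised through the splice sites at both ends. The 3′ splice site carries a pyrimidine-rich stretch and the bases AG before the exon, which U2AF2 and U2AF1 bind, and SR proteins and hnRNP proteins bound in and around the exon favour or oppose its use.

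The 3′ splice sites of the 10 exons that lead the description below are shown so that the stretch before each exon can be read. Each line gives the last 20 intron bases in lower case and the first 3 exon bases in capitals, 5′ to 3′ on the gene's strand, read from build hg38. The first 5 exons had lower inclusion in both siFBL libraries.
MAP4K4 exon 24: tgtgcctgttttttctacagAGT
ENTPD6 exon 11: ctttttaatctctgtttcagCTA
ATP6V0E2 exon 3: tgctttgctgtccctggcagCTG
BPIFB2 exon 10: gcctggggtgctgatttcagAGG
SLC39A13 exon 5: cctccttctcctggccctagGCC
The other 5 had higher inclusion in both siFBL libraries.
GNAS exon 3: tttcaatctctctttaaaagGGG
PLOD2 exon 14: aatgcttctcttcattttagACT
C1orf43 exon 2: ttttacatctttttggacagGTG
TNRC6A exon 7: ttttcccacactttctaaagGCT
ITGA6 exon 25: aataccttgcttccttgtagTGT
Over the 40 bases before the exon, T made up 30%, 55%, 27.5%, 32.5% and 30% in the first set and 35%, 37.5%, 47.5%, 40% and 32.5% in the second, each in the order printed.

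The 3941 events covered 3796 distinct exons of 2408 genes, and 276 events shared their exon with another. Of these events, 3490 skipped a coding exon, 259 an exon in a 5′ untranslated region, 27 one in a 3′ untranslated region and 74 an exon of a noncoding transcript, and 91 were not annotated in GENCODE release 44. The median exon was 117 bases long, with a range of 9 to 4068, and 49.1% of the lengths were a multiple of 3. The bases AG preceded 99.92% of the exons and GT followed 98.88%. Most exons were included in nearly every transcript. The median inclusion level, the length-scaled share of inclusion reads on a scale from 0 to 1, was 0.990 and 1 in the siCtrl libraries and 1 and 0.981 in the siFBL libraries.

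The libraries held between 910779 and 1142189 junction reads, of which the member events took 97.2%. The median event had 58.25 reads per library. Skipping reads were present in all 4 libraries for 892 events and in exactly 1 library for 2069, so for most exons a skipped form rested on few reads. Just inside the read minimum, 23 events with a mean of 20 reads had a median change of -0.09 (siFBL minus siCtrl), and 22 events just outside it, with a mean of 19.75, had -0.12. No event of FBL was listed, so its own transcript could not be checked in these reads. In the table of FUBP1 binding, the mean normalized count that the authors give for FBL was 1034 in siCtrl and 164 in siFBL cells, a ratio of 0.159 between values that were normalized separately and include immunoprecipitated RNA. The hepatocyte genes on the marker list had 21 events in 10 of 16 genes and took the most reads together with FN1 and A2M, and the 12 markers of blood, stromal, endothelial, neural, muscle and basal epithelial cells had 0 events.

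No exon passed the test. The quasi-binomial test with limma-moderated dispersion called 0 of 3941 events at an adjusted p under 0.1 (smallest adjusted p 0.493). At an unadjusted p under 0.05 it found 90 events, 2.28% of those tested, of which 66 had lower inclusion in siFBL (1.67%) and 24 higher (0.609%). limma on the log2 odds of inclusion called 1 event and had 202 at an unadjusted p under 0.05. The same quasi-binomial test called 66 of 27762 events after U3 depletion (0.238%) and 31 of 13630 after FUBP1 depletion (0.227%), where each group had 3 libraries. The study ran rMATS on the same input libraries at an FDR under 0.1. It reported FBL-dependent events, with more exon skipping events up than down. The 0 calls for siFBL come from a different test, and its calls were not compared with those of the study.

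The 2 groups lay as far apart as the libraries within them. Over all members, the mean absolute difference of inclusion level was 0.097 between the siCtrl libraries, 0.110 between the siFBL libraries and 0.101 to 0.108 between libraries of different groups. It was smaller where more reads were counted. For the 606 events with 200 or more reads, it was 0.0205 and 0.0239 within the groups and 0.0226 to 0.0250 between them. Among the 774 events with enough reads of both forms to set the dispersion, the median variance was 6.63 times the binomial variance.

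**Figure D1:**
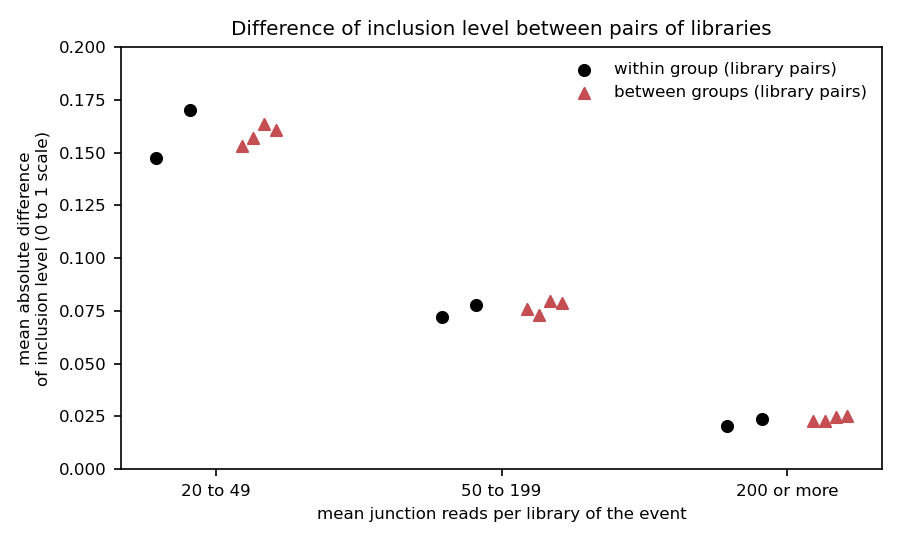
Mean absolute difference of inclusion level (vertical axis, 0 to 1 scale) for the 6 pairs of libraries, in 3 classes of junction reads per library (horizontal axis). Circles are pairs within a group and triangles pairs between siCtrl and siFBL. The between-group pairs lie at or near the within-group pairs in each class, at 0.0226 to 0.0250 with 200 or more reads.

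Inclusion levels that did not overlap between the groups and differed by at least 0.1 were found for 346 events, 8.78% of all members. Of these, 197 were lower in both siFBL libraries (5%) and 149 higher (3.78%). With 1 siCtrl library left out more were higher, and with 1 siFBL library left out more were lower. The balance thus followed the group left with 1 library, so leaving out a library cannot test it. Without the condition on overlap, 650 events were lower by at least 0.1 and 525 higher. The 24 exons named next are the 12 in each direction with the smallest unadjusted p among those with at least 20 reads in every library. GNAS had an adjusted p of 0.493, and the other 23 had an adjusted p of 0.869, so none of them passed the test and their values are a description.

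Among exons with lower inclusion in siFBL, MAP4K4 exon 24, of a kinase upstream of stress-activated MAP kinases, is 192 bases long (chr2:101871494-101871685, plus strand). Its inclusion level was 0.659 and 0.451 in siCtrl and 0.0909 and 0.237 in siFBL, from 54 and 47 reads in siFBL. Both siFBL libraries lay well below both siCtrl libraries, and the means differed by -0.39 (unadjusted p = 0.00178, quasi-binomial test with limma-moderated dispersion). The 102-base exon 11 of ENTPD6, a nucleotide-hydrolysing enzyme, was deeper in reads (chr20:25221232-25221333, plus strand). Its level was 0.925 and 0.674 in siCtrl against 0.571 and 0.569 in siFBL. The siFBL libraries were nearly equal and both below siCtrl, while the siCtrl libraries were as far from each other as the group means, which differed by -0.23.

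ACLY, the ATP citrate lyase that makes cytosolic acetyl-CoA, has a 30-base exon 14 (chr17:41896620-41896649, minus strand). It was included at 0.803 and 0.732 in siCtrl and at 0.420 and 0.445 in siFBL, with the libraries of each group close to each other. ERCC1, a subunit of the endonuclease of nucleotide excision repair, has a 72-base exon 8 (chr19:45413963-45414034, minus strand). Its level was 0.907 and 1 in siCtrl and 0.461 and 0.495 in siFBL. The second siCtrl library had no skipping read among 86, and the siFBL libraries had 30 and 11. In BPIFB2, of a family of lipid-binding proteins, the 54-base exon 10 had 0.790 and 0.682 in siCtrl and 0.566 and 0.592 in siFBL.

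For 4 exons, no skipping read was counted in either siCtrl library. In SLC39A13, a zinc transporter, exon 5 (chr11:47413400-47413507, plus strand) had 64 and 76 inclusion reads in siCtrl, and siFBL had 36 and 43 inclusion reads with 22 skipping reads in each library. Its level was therefore 1 and 1 against 0.487 and 0.531. In SLC2A8, a glucose transporter, exon 3 had 35 and 31 skipping reads in siFBL, for levels of 0.729 and 0.659. ZDHHC5, a palmitoyltransferase, had 0.532 and 0.837 at exon 10, and the kinase gene AATK had 0.143 and 0.628 at its exon 10. The libraries of the siFBL group were far apart in both of these genes.

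The remaining exons of this direction had at least 1 wide group. ATP6V0E2, a subunit of the vacuolar proton pump, had 1 and 0.838 in siCtrl and 0.829 and 0.358 in siFBL at exon 3, so the second siCtrl and the first siFBL library nearly met. IL32, a cytokine, had 0.945 and 0.749 against 0.649 and 0.594 at exon 4. METTL26 exon 2 had 0.321 and 0.727 against 0.141 and 0.131.

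Among exons with higher inclusion in siFBL, GNAS exon 3 had the smallest p of all members. GNAS encodes the stimulatory G protein alpha subunit, and its 45-base exon 3 (chr20:58898941-58898985, plus strand) separates the long and short forms. The reads were 131 inclusion and 553 skipping in the first siCtrl library and 107 and 604 in the second, against 188 and 391 and 244 and 510 in siFBL. The level was 0.154 and 0.120 in siCtrl and 0.270 and 0.269 in siFBL. The siFBL libraries were nearly equal and lay above both siCtrl libraries by 0.13 on the means (unadjusted p = 0.000125, adjusted p = 0.493, quasi-binomial test with limma-moderated dispersion).

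PLOD2, a lysyl hydroxylase of collagen, has a 63-base exon 14 (chr3:146077862-146077924, minus strand) that distinguishes its long form. It was included at 0.146 and 0.0329 in siCtrl and at 0.498 and 0.387 in siFBL. ITGA6, the integrin alpha 6 chain, changes its cytoplasmic tail with the 130-base exon 25 (chr2:172501772-172501901, plus strand). Its level was 0.204 and 0.0359 in siCtrl and 0.371 and 0.304 in siFBL. In both genes the exon was mostly skipped in siCtrl, and the second siCtrl library was the lowest of the 4.

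C1orf43 exon 2 (chr1:154219836-154219937, minus strand) had levels of 0.415 and 0.368 in siCtrl and 0.877 and 0.669 in siFBL. RNPS1, which belongs to the exon junction complex periphery, had 0.302 and 0.373 against 0.629 and 1 at exon 2. TNRC6A, a scaffold of microRNA-guided silencing, had 0.196 and 0 against 0.5 and 1 at exon 7, from 36 and 45 reads in siFBL. RNPS1 and TNRC6A thus varied widely within siFBL, and both siFBL libraries still lay above both siCtrl libraries.

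Of the 12 higher exons, 4 lie in a 5′ untranslated region. Among all 259 members of that kind, 25 were lower and 22 higher by at least 0.1 without overlap. Together these were 18.1%, against 8.78% of all members. RALY, an hnRNP-family protein, had 34 and 16 skipping reads at exon 2 in siCtrl and 0 in both siFBL libraries, for levels of 0.873 and 0.9 against 1 and 1. ACSL4, an acyl-CoA synthetase for long polyunsaturated fatty acids, had 0.787 and 0.701 against 0.882 and 1 at exon 2. DAG1, which encodes dystroglycan, had 0.0719 and 0.0159 against 0.224 and 0.299. TMBIM1 rested on 1 library, with 0 and 0 in siCtrl and 0.597 and 0.00842 in siFBL.

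ANKRD11, a chromatin regulator, had an exon outside its canonical transcript at 0.00724 and 0.0494 in siCtrl and 0.195 and 0.227 in siFBL. PHACTR4, a regulator of protein phosphatase 1 and actin, had a 24-base exon at 0.0201 and 0.177 against 0.805 and 0.287. The libraries of ANKRD11 were close within each group, and the siFBL libraries of PHACTR4 were far apart.

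**Figure D2:**
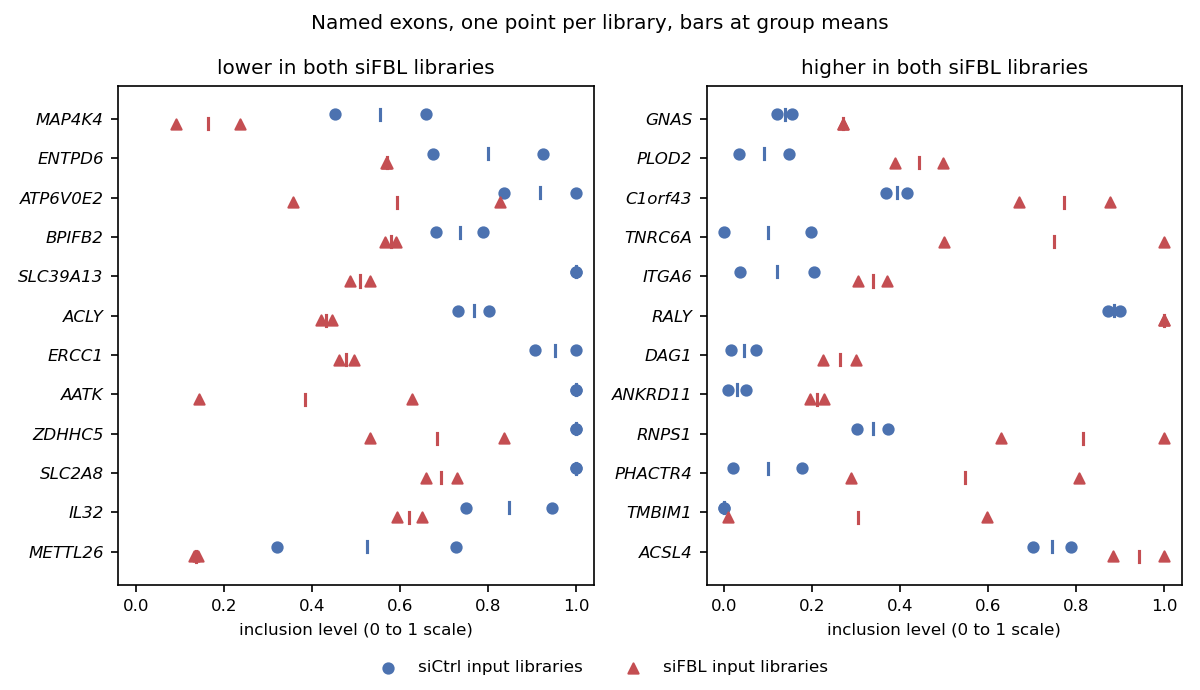
Inclusion level (horizontal axis, 0 to 1 scale) of the 12 exons lower and the 12 exons higher in both siFBL libraries, 1 point per library (circles siCtrl, triangles siFBL) with bars at group means. GNAS, ACLY and SLC39A13 show close libraries within each group, while ATP6V0E2, AATK, TMBIM1 and PHACTR4 show siFBL libraries far apart, as 0.597 and 0.00842 in TMBIM1.

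Of these 24 exons, 1 passed the test in another depletion. ACSL4 exon 2 was lower after FUBP1 depletion, with a mean level of 0.893 in siCtrl2 and 0.748 in siFUBP1 (adjusted p = 0.0001, quasi-binomial test with limma-moderated dispersion), the direction opposite to that of its siFBL values. GNAS exon 3 had 0.331 and 0.327 in GFP ASO and U3 ASO and 0.151 and 0.151 in siCtrl2 and siFUBP1. MAP4K4 exon 24 had 0.557 and 0.553 in the U3 comparison. At some named exons the controls of the other depletions lay nearer siFBL than siCtrl. RNPS1 exon 2 had means of 0.337 in siCtrl, 0.815 in siFBL, 0.749 in GFP ASO and 0.906 in siCtrl2. ERCC1 exon 8 had 0.953, 0.478, 0.685 and 0.592 in that order. At ACLY exon 14, with 0.768, 0.432, 0.787 and 0.863, they lay nearer siCtrl. The differences between controls were not tested. PLOD2 exon 14 was higher in every depletion group than in its control, at 0.275 and 0.340 with U3 and at 0.184 and 0.214 with FUBP1, and neither difference passed the test (adjusted p of 0.84 and 0.81). The same held for the named exons of C1orf43, RALY, DAG1, ANKRD11 and TMBIM1, and not for the remaining higher exons. C1orf43 exon 2 had larger differences, at 0.574 and 0.694 with U3 and at 0.629 and 0.726 with FUBP1. Among the exons named from the gene lists and for their reads, SRSF6 (+0.18, adjusted p = 1.1e-20), FN1 exon 33 (+0.06, adjusted p = 3.2e-21) and APOB exon 21 (adjusted p = 0.0022) passed after U3 depletion. ASGR1 exon 3, HNRNPA2B1 and ALB exon 13 (adjusted p = 0.047) passed after FUBP1 depletion.

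Over all members, mean inclusion was slightly lower in siFBL. The library means over 3917 events with reads in every library were 0.802 and 0.800 in siCtrl and 0.794 and 0.788 in siFBL, a difference of -0.010 with no overlap (exact two-sided permutation p = 0.333). With 2 libraries against 2, 0.333 is the smallest p this test can give. Of the 3941 events, 2102 were lower in siFBL and 1835 higher, and the median change was -0.0044. Skipping reads made up 6.83% and 6.88% of the junction reads in siCtrl and 6.72% and 6.84% in siFBL, and these groups overlapped. The 20 events with the most reads held 27.6% of the reads. Without them, the share was 9.01% and 9.08% in siCtrl and 9.22% and 9.37% in siFBL, which turned the direction.

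Among exons that are mostly included, the share of skipping reads was higher in both siFBL libraries. Classes were set by the inclusion level in the GFP ASO libraries, which enter no siFBL comparison. The class from 0.1 to 0.5 is not described here. The shares leave out the 20 most-read events, which set the direction of the share over all members. For the 867 events included at 0.9 to 0.98 in GFP ASO, skipping reads made up 2.51% and 2.52% in siCtrl and 3.16% and 3.51% in siFBL. For the 1366 events at 0.98 or more, the share was 0.586% and 0.622% against 0.702% and 0.692%, and for the 542 events at 0.5 to 0.9 it was 16.1% and 17.2% against 18.0% and 18.7%. In all 3 classes both siFBL libraries lay above both siCtrl libraries (exact permutation p = 0.333 each, adjusted p = 0.444 over the classes). With the 20 events kept in, the groups still did not overlap, and the difference was 0.765 percentage points in place of 1.70 at 0.5 to 0.9, 0.814 in both cases at 0.9 to 0.98, and 0.0399 in place of 0.0927 at 0.98 or more. By mean inclusion level the groups overlapped at 0.5 to 0.9, with 0.788 and 0.769 in siCtrl and 0.774 and 0.756 in siFBL. By skipping share the 325 events with a level under 0.1 overlapped between the groups, at 95.5% and 95.2% against 95.0% and 95.4%.

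**Figure D3:**
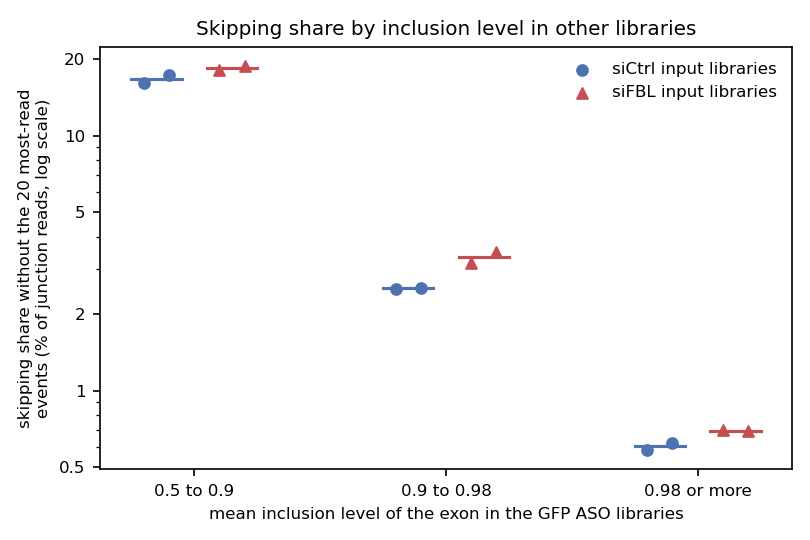
Skipping share without the 20 most-read events (vertical axis, % of junction reads, log scale) by the inclusion level of the exon in the GFP ASO libraries (horizontal axis), 1 point per library (circles siCtrl, triangles siFBL) with bars at group means. In each of the 3 classes both siFBL points lie above both siCtrl points, as at 0.9 to 0.98, with 2.51% and 2.52% against 3.16% and 3.51%.

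By intron length, mean inclusion was lower in both siFBL libraries in the short and middle classes. For 1258 events with a shorter flanking intron under 500 bases, the mean level was 0.827 and 0.823 in siCtrl and 0.810 and 0.797 in siFBL, a difference of -0.021. For 1362 events in the middle class, from 500 bases to under 2000, it was 0.789 and 0.785 against 0.778 and 0.775, a difference of -0.011. For 1297 events at the long end, with 2000 bases or more, it was 0.791 and 0.794 against 0.797 and 0.793, which overlapped. The next grouping was by T content of the 40 bases before the exon. In the class with up to 30% T, the lowest of 3 (1460 events), the mean level was 0.854 and 0.855 in siCtrl and 0.829 and 0.821 in siFBL, a difference of -0.029. In the highest class, above 42.5% T (1086 events), it was 0.768 and 0.762 against 0.777 and 0.770, a difference of +0.008. By the GC content of the exon, the highest of 3 classes differed by -0.023 and the lowest by +0.003. By skipping share without the 20 most-read events, the low-T class differed by +0.29 percentage points and the short-intron class by +0.78. The middle intron class overlapped between the groups by this share, with a difference of -0.0012 percentage points. The long class had a lower skipping share in both siFBL libraries, a difference of -0.345 percentage points, although it overlapped by mean level. The high-T class overlapped by skipping share, with a difference of -0.036 percentage points. These properties go together in the human genome, and which of them the difference follows was not tested.

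Within a library, the low-T class exceeded the high-T class by 0.086 and 0.093 in siCtrl and by 0.053 and 0.051 in siFBL, a difference of -0.037 with no overlap (exact permutation p = 0.333). By skipping share without the 20 most-read events this contrast overlapped, at -7.29 and -7.60 percentage points in siCtrl and -6.94 and -7.29 in siFBL (exact permutation p = 0.667). For the events also read in the U3 table (1239 and 972 in these classes) the group means of this gap were 0.064 for GFP ASO and 0.062 for U3 ASO (-0.003, exact permutation p = 0.2). In the FUBP1 table (1073 and 886 events) it was 0.043 in siCtrl2 and 0.080 in siFUBP1 (+0.037, exact permutation p = 0.1, the lowest value possible with 3 libraries a group). The gap between exons beside short and long introns differed by -0.023 after siFBL, by +0.002 after U3 ASO and by +0.028 after siFUBP1. By skipping share without the 20 most-read events of each table, the contrast of short and long introns differed by +1.13 percentage points after siFBL, +0.62 after U3 ASO and -1.89 after siFUBP1. The siFBL and siFUBP1 values had opposite signs by either measure, while the U3 value had the sign of siFBL by skipping share and the opposite one by mean level. The control groups were as far apart as any depletion from its control, since the low-T gap ran from 0.043 in siCtrl2 to 0.089 in siCtrl input. These gaps were taken over different sets of events, so the event set and the control group cannot be told apart. A difference between the depletions was not tested.

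**Figure D4:**
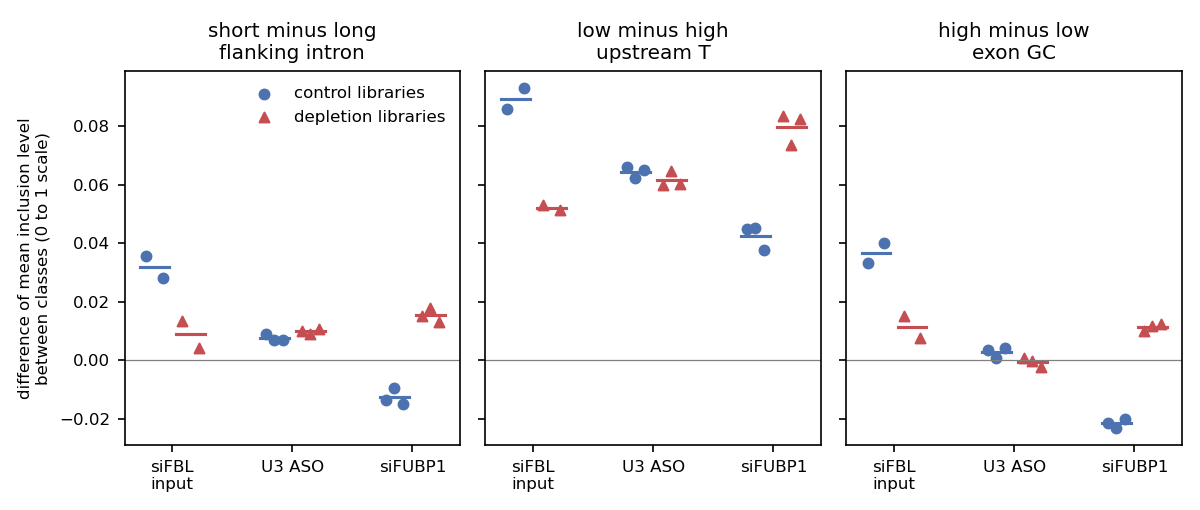
Difference of mean inclusion level between 2 classes of exons (vertical axis, 0 to 1 scale) in each library of the 3 depletions, for the events described here. Circles are control and triangles depletion libraries, with bars at group means. In the siFBL input the gap between low-T and high-T exons is 0.089 in siCtrl and 0.052 in siFBL, and in the FUBP1 table it is 0.043 in siCtrl2 and 0.080 in siFUBP1.

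The 346 events that differed by at least 0.1 without overlap are picked from the same inclusion levels. Their properties by direction are therefore not a second result beside the class differences above. The 197 lower events had a median of 32.5% T before the exon, 54.8% GC in the exon and 1751 bases in the upstream intron. The 149 higher events had 40%, 48.3% and 3450 bases. All members had 35%, 52.4% and 2131 bases. The share with a length that is a multiple of 3 was 52.8% and 52.3%, against 49.1% of all members. The median siCtrl level was 0.921 for the lower events, 0.625 for the higher events and 0.967 for all members. An exon near a level of 1 has little room to rise, and how far these properties follow the starting level was not tested.

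In the gene lists, 0 events were called. Core spliceosome and 3′ splice site factors had 26 events, of which 2 were lower and 3 higher without overlap by at least 0.1, together 19.2% against 8.78% of all members. Their median change was +0.01, against -0.0044 over all members. PUF60, which binds the pyrimidine-rich stretch with U2AF2, had 0.516 and 0.709 in siCtrl and 0.174 and 0.281 in siFBL at exon 5. SNRPG, a subunit of the Sm ring of spliceosomal small nuclear ribonucleoproteins, had 0.957 and 0.990 against 0.794 and 0.734 at its 23-base exon 2. U2AF2 itself had 0.987 and 1 against 0.895 and 0.937 at its 45-base exon 3, a difference below 0.1. At these 3 exons the siFBL libraries lay below both siCtrl libraries. The 3 higher events, named after their values were seen, were 2 overlapping forms of 1 exon of PUF60 and an exon of SNRPN, which encodes an Sm protein. The 84-base form in PUF60 had 0.612 and 0.736 in siCtrl and 0.960 and 0.747 in siFBL, and the 87-base form had 0.636 and 0.763 against 0.962 and 0.777. The 124-base exon of SNRPN had 0.0363 and 0.00577 against 0.294 and 0.0371. In all 3 events 1 siFBL library lay close to the higher siCtrl library.

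The hnRNP genes had 34 events, 3 lower and 2 higher, together 14.7% against 8.78% of all members. The 36-base exon of HNRNPA2B1 that separates its protein forms (chr7:26197831-26197866, minus strand) was included at 0.181 and 0.223 in siCtrl and at 0.128 and 0.147 in siFBL, and in the FUBP1 comparison it was lower too, at 0.190 and 0.148 (adjusted p = 0.081). PTBP1, a repressor that binds pyrimidine-rich stretches, had 18 skipping reads at exon 2 in 1 siCtrl library and 0 in the other 3. HNRNPU had 23 at exon 2 in 1 siFBL library and 0 in the others. SR and TRA2 proteins had 11 events, none of which met both conditions. The 268-base exon of SRSF6 outside its canonical transcript had 0.0998 and 0.174 in siCtrl and 0.235 and 0.225 in siFBL, a difference of +0.09 that fell short of 0.1. TRA2A exon 2 and SRSF7 exon 7 overlapped between the groups. The kinases CLK1 and SRPK1, which phosphorylate SR proteins, overlapped as well. The RBM proteins had 10 events, of which 1 was lower by at least 0.1 without overlap (10%). It was exon 2 of RBM4, at 1 and 1 against 0.778 and 0.960.

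Box C/D ribonucleoprotein, assembly and U3 processome genes had 30 events, 1 lower and 1 higher, together 6.67% against 8.78% of all members. TCOF1, a nucleolar factor for ribosomal RNA transcription, had 0.773 and 0.531 in siCtrl and 0.346 and 0.388 in siFBL at exon 20. DDX49 exon 10 and TSR1 exon 2, both of genes for ribosomal subunit maturation, had skipping reads only in the second siFBL library, 11 and 12. Small nucleolar RNA host genes had 26 events, 1 lower and 1 higher, together 7.69%. SNHG16 had 0.715 and 0.831 against 0.226 and 0.655, and CCAR1 exon 4 had 0.688 and 0.935 against 0.983 and 0.969. RACK1, a ribosome-bound scaffold whose introns hold small nucleolar RNAs, had 0 skipping reads in siCtrl and 6 and 5 in siFBL beside 946 and 806 inclusion reads at exon 5.

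Ribosomal protein exons were spliced in at nearly the same level in every library. Their 31 events in 26 genes had a median of 843.5 reads per library, and 0 of 31 differed by at least 0.1 without overlap, against 8.78% of all members. These shares are not like for like, since the median member had 58.25 reads and differences of 0.1 are rarer with more reads. Between the siCtrl libraries, 44.2% of events with 20 to 49 reads differed by at least 0.1, and 3.80% of those with 200 or more. RPS2 exon 4 had 0.978 and 1 in siCtrl and 1 and 1 in siFBL, RPL27 exon 3 had 1 and 1 against 0.994 and 1, and RPS21 exon 4 had 1 and 0.992 against 0.989 and 0.985. Translation initiation factors had 34 events, 1 lower and 2 higher, together 8.82% against 8.78% of all members. Exon 5 of EIF4H, a helper of the helicase that unwinds mRNA leaders, was higher, at 0.0322 and 0.0232 in siCtrl and 0.215 and 0.133 in siFBL. Exon 7 of EIF4B, which has the same role, had 1 and 1 against 0.957 and 0.947, and EIF5B had skipping reads in 1 siFBL library only.

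Genes of nonsense-mediated decay and the exon junction complex had 16 events, 1 lower and 1 higher, together 12.5% against 8.78% of all members. The higher event was RNPS1 exon 2. SMG5 exon 11 and UPF3A exon 6 overlapped between the groups. Of 14 events in p53 and nucleolar stress genes, 1 was lower (7.14%). GADD45A, a stress-induced p53 target, had 23 skipping reads at exon 2 in 1 siCtrl library and 0 in the other, so its groups overlapped. Exons of RPL11 and NPM1, which act on the p53 pathway when ribosome assembly is disturbed, stayed above 0.98 in every library.

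Liver plasma protein genes had deep reads, with a median of 2775 per library, and 1 lower and 1 higher event among 73. Together these were 2.74%, against 8.78% of all members, and differences of 0.1 are rarer with more reads. APOB exon 5 had 48 and 8 skipping reads in siCtrl and 0 in siFBL beside at least 12329 inclusion reads per library, for levels of 0.994 and 0.999 against 1 and 1. AHSG exon 6 had 0.959 and 0.955 against 0.942 and 0.932, and ITIH2 exon 17 had 1 and 1 against 0.981 and 0.994. These groups did not overlap although they differed by 0.02 or less. FN1 exon 33, an exon of fibronectin that is skipped in the form hepatocytes secrete, had 0.848 and 0.859 in siCtrl and 0.843 and 0.849 in siFBL from at least 16918 reads per library, and the groups overlapped. ASGR1, the hepatocyte asialoglycoprotein receptor, had 0.973 and 0.970 against 0.947 and 0.923 at exon 3, and after FUBP1 depletion the same exon was higher, at 0.861 and 0.98 (adjusted p = 3.8e-06).

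Actin-binding and adhesion genes had 54 events, 4 lower and 1 higher, together 9.26% against 8.78% of all members. The higher event was in ITGA6. FLNA exon 40 had 24 skipping reads in 1 siFBL library and 0 in the others. A list built around genes that the study followed had 20 events in 5 genes, 1 lower and 4 higher, together 25% against 8.78% of all members. Of the 4, 3 share a 76-base exon of PEG3, a gene on the list that the study's text does not name. This list was drawn up around a study of these samples and is not independent of them. PEG3, an imprinted zinc finger gene, had another, 131-base exon in its 5′ untranslated region at 1 and 1 in siCtrl and 0.747 and 0.872 in siFBL. SNX5 exon 4 and IGF2BP1 exon 6 had skipping reads in the second siFBL library alone, 12 and 1.

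Junction reads per gene differed between the groups for many genes. Scaled to 1000000 junction reads of member events per library (the total scale), ribosomal protein genes held 44137 and 45293 in siCtrl and 35711 and 34671 in siFBL, a ratio of 0.787 (exact permutation p = 0.333). Of their 26 genes, 16 lay below both siCtrl libraries and 1 above, against 32% and 15.2% of all 2408 genes. In bulk RNA, fewer cells of a type and less RNA per cell cannot be told apart. The scale matters here, because the median gene had a log2 ratio of -0.19 on the total scale. When libraries were scaled to the median ratio over genes, the ribosomal protein genes had a ratio of 0.896 with 13 genes below and 1 above, against 22.3% and 22.6% of all genes. RPS2 had 3251 and 3877 reads on the total scale in siCtrl and 2189 and 2288 in siFBL, and RPLP0 had 1400 and 1488 against 948 and 915. Both lay below siCtrl under either scaling.

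The summed junction reads of genes around box C/D small nucleolar RNAs were lower in both siFBL libraries. The ribonucleoprotein and processome genes had 6034 and 6141 in siCtrl and 4537 and 4394 in siFBL on the total scale, a ratio of 0.734 (0.835 with the median ratio), with 7 of 16 genes below and 0 above. With the median ratio 5 lay below and 1 above. Of all genes, 32% lay below and 15.2% above on the total scale, and 22.3% and 22.6% with the median ratio. The median gene of this list had a log2 ratio of -0.24 on the total scale, close to the -0.19 of all genes, and NOP56 and NPM1 held most of the reads. NOP56, a core protein of the ribonucleoprotein and a small nucleolar RNA host itself, had 2378 and 2586 in siCtrl and 1747 and 1542 in siFBL. NPM1, a nucleolar chaperone, had 1857 and 1775 against 1359 and 1291. The host genes had 8762 and 9162 against 6561 and 6567, a ratio of 0.732 (0.833), with RACK1 at 1271 and 1449 against 1027 and 845. NOP56 stands on both lists, so the ratios are not separate measurements.

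Liver plasma protein genes had a ratio of 1.09 on the total scale and 1.24 with the median ratio, and 9 of 25 genes lay above both siCtrl libraries and 8 below on the total scale. With the median ratio 15 lay above and 4 below. Of all genes, 15.2% lay above and 32% below on the total scale, and 22.6% and 22.3% with the median ratio. AFP, the fetal serum albumin homologue, had 23520 and 24121 in siCtrl and 32175 and 33314 in siFBL, and SERPINA1, the alpha-1 antitrypsin gene, had 291 and 274 against 920 and 546. The 4 genes below with the median ratio were APOA2, APOC1, CP and SERPINA3, and they lay below on the total scale too. APOA2 had 7631 and 7754 against 4832 and 5156, and SERPINA3 had 3734 and 3885 against 3014 and 3188. ALB, at 18687 and 18977 against 18450 and 18230, was below on the total scale and above with the median ratio. SNX5, one of the genes followed in the study, had 1240 and 1223 against 476 and 680, a log2 ratio of -1.09 that was -0.91 with the median ratio. These gene-level differences moved with the groups in which inclusion was compared, and their part in the inclusion levels was not tested.

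**Figure D5:**
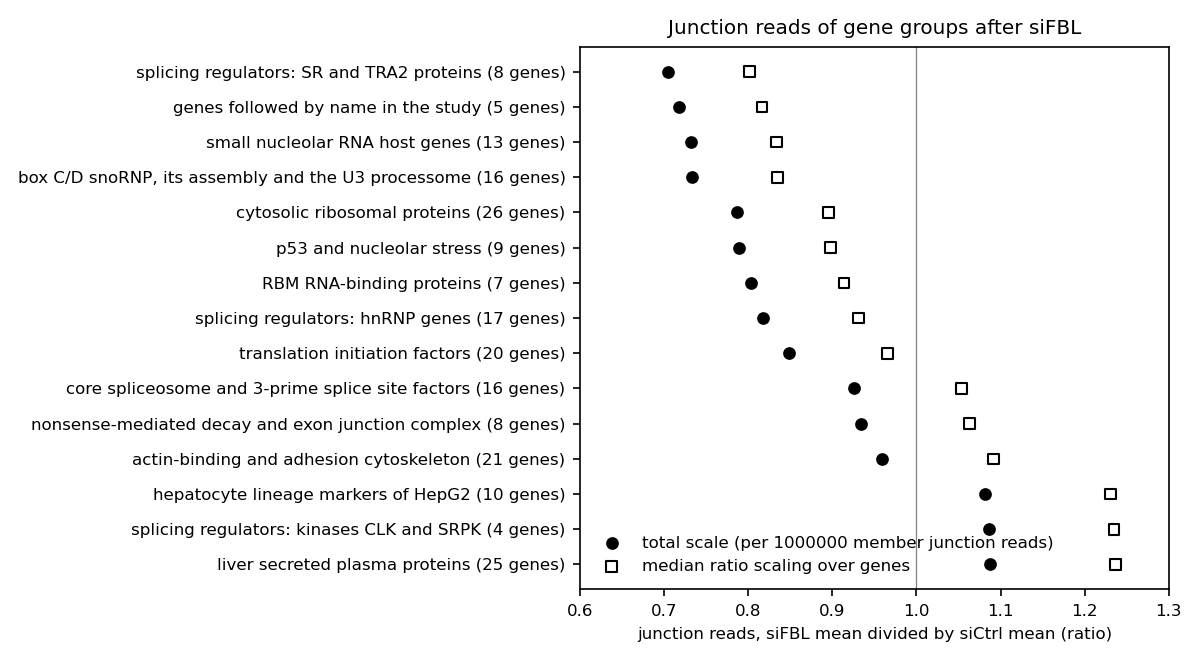
Junction reads of gene groups, the siFBL mean divided by the siCtrl mean (horizontal axis, ratio), on the total scale (filled circles) and with the median ratio over genes (open squares). Ribosomal protein genes lie at 0.787 and 0.896 and liver plasma protein genes at 1.09 and 1.24, and the core spliceosome, decay and cytoskeleton groups cross 1 between the scalings.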

How the data were processed

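RNA-seq reads of HepG2 input libraries (2 siCtrl, 2 siFBL, SMARTer stranded total RNA kit, labelled as polyA RNA) had been trimmed with cutadapt and aligned to hg38 with HISAT2 by the authors, and rMATS had counted them across splice junctions; tool versions, annotation release and duplicate removal are not given in the sources used here. The deposited table lists inclusion and skipping counts per library in one cell, with positions that carry no replicate number, so libraries are named first and second by position. The gene-level mean normalized count, a score from the authors' DESeq2 run, was used for FBL only. Another 6 columns of per-sample inclusion levels, and the authors' p-values and fold changes, were not used.

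Inclusion level is the share of inclusion reads after each count is divided by its effective length. Each event was tested with a quasi-binomial model, dispersions moderated by limma 3.58.1 (squeezeVar, R 4.3.3) and p-values adjusted by Benjamini-Hochberg over 3941 events. Calls needed an adjusted p under 0.1. A standard count test takes no lists of counts, so this one was used. It was also run on simulated data, but the outcome is not given here, so its power with 2 libraries a group is left unstated. Library summaries used exact two-sided permutation tests. Annotation was GENCODE 44. The members, gene lists and tests were chosen with earlier results of these data known. Named exons are the 12 in each direction with the smallest p among those without overlap, a change of at least 0.1 and 20 reads in every library, up to 3 per gene list and the 5 most read. Classes by control level, which reuse the compared libraries, were replaced by classes from the GFP ASO libraries. These, the classes by T and GC content, and the reads per gene with their scaling were added after seeing the data.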

Additional observations from a re-analysis of the deposited data

How the results depend on the processing

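No paired analysis was possible because positions in the lists of reads carry no replicate number. The count of called events was 0 under every alternative to the quasi-binomial test but 1. limma on the log2 odds without a variance trend called 1 event, PLD3 exon 2, chosen here after its values were seen, with inclusion levels of 1 and 0.949 in siCtrl and 0 and 0.2 in siFBL from a mean of 21.5 reads. The skipping share differed by +0.252 percentage points without the 20 most-read events, against -0.0788 with them, and the cause was not tested beyond the weight of those events. Events that differed by at least 0.1 without overlap numbered 346, and 160 with a mean of at least 50 reads, where fewer events were tested. Leaving out 1 library gave 781 to 861, since 1 library against 2 overlaps less often by construction, and turned the balance: without the first or second siCtrl library 332 or 297 were lower and 487 or 484 higher, and without the first or second siFBL library 638 or 568 were lower and 223 or 269 higher. The difference of mean inclusion level stayed between -0.0131 and -0.0066 when 1 library was left out. The gap between low-T and high-T exons differed by -0.0204 with at least 50 reads, against -0.0373, and the gap between short and long introns by -0.014, against -0.0231. The 24 named exons kept their direction without length scaling and with limma on the log odds, and their direction with 1 library left out is fixed by their choice. TMBIM1 differed by 0.303, and by 0.00842 without the first siFBL library. The skipping shares by GFP ASO level kept their direction with the 20 most-read events and with 1 library left out, alternatives added after seeing the data. Depth limits single exons, since 2069 members had skipping reads in exactly 1 library, and groups of 2 libraries allow no exact p below 0.333.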
